A study of Gallus gallus with 6 samples.

Results

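Genes that define the T lymphocyte lineage were followed in DT40, a chicken B cell line, with and without the B cell transcription factor PAX5. The 10 genes were CD247, CD3E, CD4, CD8A, LCK, ZAP70, NOTCH1, GATA3, BCL11B and TCF7. They were followed through all probe sets, the units of measurement on the array, whose platform annotation gives exactly 1 gene symbol and that symbol is among the 10. The rule found 16 probe sets of 9 genes among 38439 probe sets tested. TCF7 had no such probe set and was not analysed here. Total RNA from 3 samples of wild-type DT40 and 3 samples of Pax5-deficient DT40 (genotype Pax5-/-) was hybridised to Affymetrix chicken arrays, 1 array per sample. The labels give DT40 as an adult female line of the bursa of Fabricius. The Pax5-deficient cells had received the targeting constructs Pax5-neo and Pax5-bsr, each with a selection cassette flanked by PAX5 sequence, by electroporation, and stable clones were then selected. The wild-type samples carry the same protocol text and differ in their genotype label, and no separate treatment of them is described. Whether the Pax5-deficient samples stem from the same clone is not stated, and transfection, drug selection, cloning and loss of PAX5 cannot be told apart in this design. The samples are described as biological replicates with no word on separate cultures, so the p-values measure only the spread between the arrays, which may be technical.

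T and B lymphocytes arise from shared progenitors and use parallel signalling machines. In T cells, the antigen receptor signals through the CD3 chains and the CD247 (CD3 zeta) chain, whose tyrosine motifs are phosphorylated by the kinase LCK and then bind the kinase ZAP70, while CD4 and CD8 bring LCK to the receptor. The T cell programme is started by NOTCH1 and fixed by the transcription factors TCF7, GATA3 and BCL11B. In mice, PAX5 represses Notch1 in early B cells, and progenitors that lack Pax5 can be turned toward the T lineage.

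Levels are log2 expression values, and differences are those of Pax5-deficient minus wild-type samples on the log2 scale. The chicken array carries 687 probe sets named for virus genomes, and the value that 95% of them did not exceed was taken as the background level of an array. It was 3.77 to 3.92 on the log2 scale over the 6 arrays, and between 52.6% and 55.3% of probe sets lay above it. The 99% point of the same probe sets was 4.58 to 4.92. Whether any of them detects a virus sequence present in these cells was not tested. The array medians were 3.95 to 4.02, and log2 values across probe sets correlated at 0.978 to 0.981 between arrays of different groups and at 0.991 to 0.996 within a group. Of 4 probe sets for PAX5 itself, 1 fell, from 4.55, 4.41 and 4.30 in wild-type samples to 3.86, 3.55 and 3.34, at background, in Pax5-deficient samples (limma adjusted p = 0.00483). Of the others, 1 was above background in both groups and did not pass (0.24 ± 0.09, SE), and the sources used here do not say where the probe sets lie relative to the targeted part. The last 2 were at background in both groups. Of 20 defining genes of B cells 16 were measured, each on its brightest probe set, and 15 of them were above background in all 6 samples. The exception on this measure was EBF1, which was at background in the Pax5-deficient samples. PAX5 itself is counted among the 15, on its probe set that was above background in both groups, although another of its probe sets fell to background.

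Across the 16 probe sets, 4 rose and 1 fell in Pax5-deficient cells, and 11 did not pass an adjusted p of 0.05 in limma. Of the 16, 31.2% passed. Over all probe sets tested, 10.6% passed, 3.93% higher and 6.70% lower. The probe set of CD247 and both probe sets of CD8A rose, the probe set of CD3E fell, and 1 of 5 probe sets of NOTCH1 rose from background. CD4, GATA3 and BCL11B were at background in every sample. The median difference of the 16 was 0.10, beside 0.03 over all probe sets. For 7 of the 16 probe sets the wild-type and Pax5-deficient values did not overlap, beside 27.4% of all probe sets, a smaller share. The 11 that did not pass had differences between -0.08 and 0.27, and their 95% intervals reached from -0.32 to 0.47 at the widest.

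**Figure D1:**
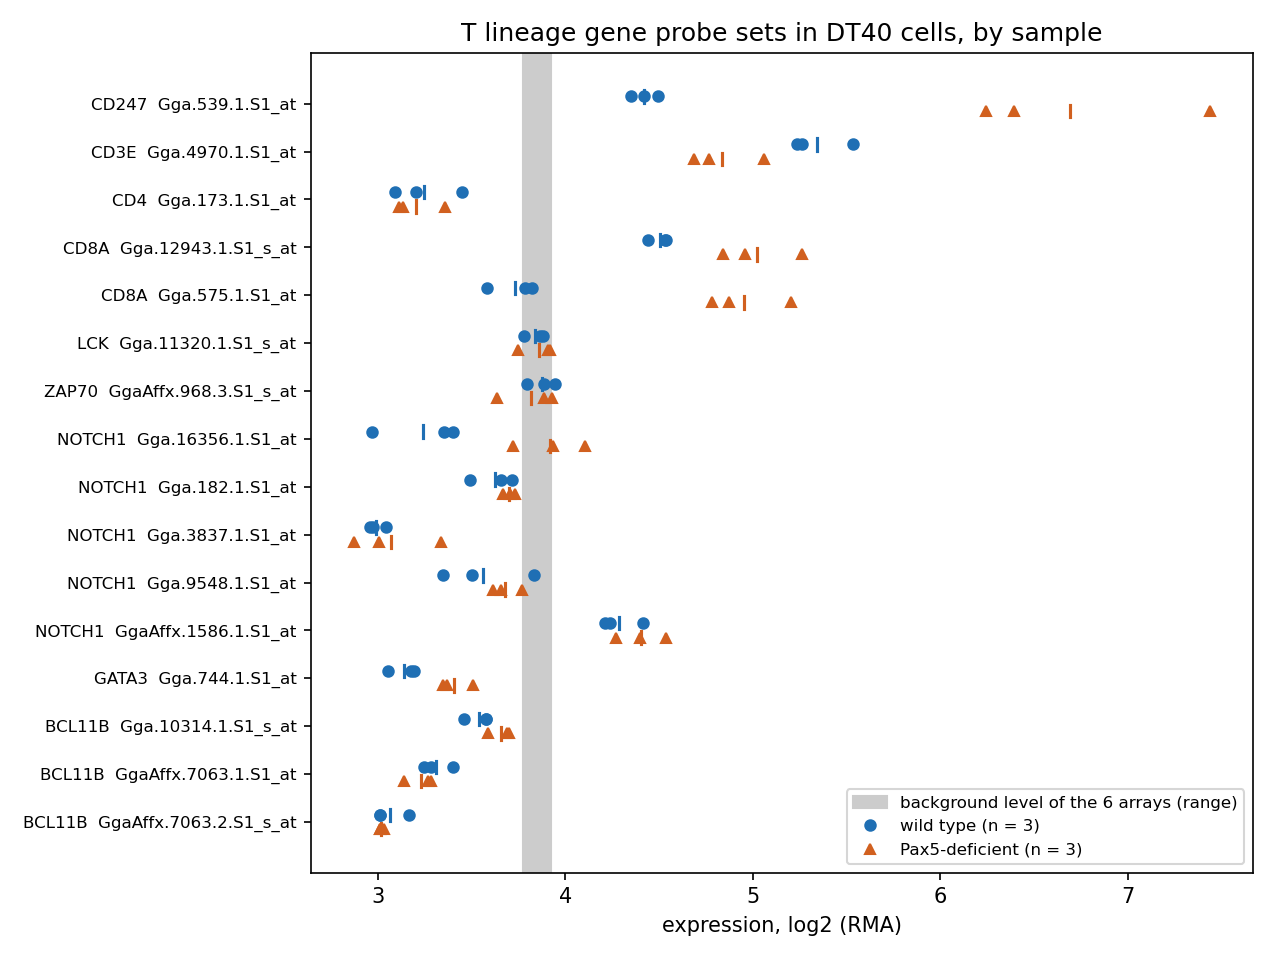
Log2 expression of the 16 probe sets in each sample (blue circles, wild type; orange triangles, Pax5-deficient; n = 3 each), with group means as short vertical lines and the range of the background level of the 6 arrays as a grey band. CD247 reached 6.24 to 7.44 in Pax5-deficient samples, and the probe sets of CD4, GATA3 and BCL11B lay left of the band in both groups.

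CD247, on chromosome 1, encodes the zeta chain, the main signalling subunit of the T cell receptor complex. Its probe set lay at 4.50, 4.42 and 4.35 in wild-type samples and at 6.24, 7.44 and 6.39 in Pax5-deficient samples. All 3 Pax5-deficient samples were above all wild-type samples, with replicate 2 the highest. The rise came to 2.27 ± 0.27 log2 units (standard error; 3 samples in each group), a 4.82-fold difference (limma, Benjamini-Hochberg adjusted p = 0.000791). It passed whichever sample was left out, with a difference of 1.90 without Pax5-deficient replicate 2. The wild-type level was above background in all 3 samples, but not with the 99% point of the virus probe sets as background, against which the fold would be a lower bound.

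CD3E, on chromosome 24, encodes a CD3 chain that pairs with the other CD3 chains around the receptor. Its probe set lay at 5.26, 5.53 and 5.23 in wild-type samples and at 4.77, 5.06 and 4.68 in Pax5-deficient samples, above background in all 6. With the 99% point of the virus probe sets as background, all 3 wild-type samples but only 1 Pax5-deficient sample were above it. The groups did not overlap, but the gap between them was 0.18. The fall of 0.51 ± 0.13 passed (limma adjusted p = 0.0355). Leaving out Pax5-deficient replicate 1 or 3 ended the call (adjusted p = 0.0979 and 0.12), as did leaving out wild-type replicate 1, 2 or 3 (0.0715, 0.14 and 0.0657), and it held without Pax5-deficient replicate 2. The products of CD247 and CD3E sit in the same receptor complex in T cells.

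CD8A, on chromosome 4, encodes the alpha chain of the CD8 coreceptor, which binds MHC class I and the kinase LCK. It has a pair of probe sets, and the dimmer lay at 3.82, 3.58 and 3.78 in wild-type samples and at 4.87, 5.20 and 4.78 in Pax5-deficient samples. Only 1 of the wild-type samples was above background there, and the groups stood 0.96 apart. The rise was 1.22 ± 0.13 (limma adjusted p = 0.000416), and it passed whichever sample was left out. With the wild-type mean of 3.73 under the mean background level of 3.83, no fold is given. With the 99% point of the virus probe sets as background, only 1 Pax5-deficient sample was above it on this probe set. The brighter probe set lay at 4.54, 4.53 and 4.44 in wild-type samples and at 5.26, 4.84 and 4.96 in Pax5-deficient samples, again with no overlap. Its rise was 0.52 ± 0.12 (95% interval 0.25 to 0.78; limma adjusted p = 0.0233). This rise no longer passed when Pax5-deficient replicate 3 (adjusted p = 0.0544) or wild-type replicate 1, 2 or 3 (0.0628, 0.0769 and 0.0912) was left out. The identifier of the brighter probe set ends in _s_at, which in Affymetrix names marks probes that can bind more than 1 transcript. The only probe sets of LCK and ZAP70 and some of those of BCL11B have the same ending.

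CD4, the coreceptor that binds MHC class II, was at background in every sample. Its probe set lay between 3.09 and 3.45, and the groups overlapped (-0.05 ± 0.12, limma adjusted p = 0.879).

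The kinases that act next to the receptor stayed near the background level. LCK, the Src family kinase that phosphorylates the receptor chains, lay at 3.78, 3.86 and 3.88 in wild-type samples and at 3.75, 3.92 and 3.91 in Pax5-deficient samples, with 2 samples of each group above background. ZAP70, the kinase that binds phosphorylated CD247, lay at 3.88, 3.94 and 3.79 and at 3.93, 3.89 and 3.64. The groups overlapped for both genes, and neither passed (0.02 ± 0.09 for LCK and -0.06 ± 0.10 for ZAP70; limma adjusted p = 0.944 and 0.818). The 95% intervals were -0.18 to 0.22 for LCK and -0.29 to 0.18 for ZAP70. So near to background, an array understates a change, and these intervals hold for the measured values.

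NOTCH1, on chromosome 17, encodes the receptor whose signal starts T lineage commitment. Of its 5 probe sets, 1 lay at 3.35, 3.40 and 2.97 in wild-type samples, all at background, and at 3.72, 4.11 and 3.93 in Pax5-deficient samples, of which replicates 2 and 3 were above background (none with the 99% point as background). The groups did not overlap, and the rise of 0.68 ± 0.14 passed (limma adjusted p = 0.0156), but not without Pax5-deficient replicate 3 (adjusted p = 0.0553). Set against the background level, the rise was at least 1.09-fold. The brightest probe set was above background in all 6 samples, and in none with the 99% point, at 4.41, 4.21 and 4.24 in wild-type samples and 4.53, 4.27 and 4.40 in Pax5-deficient samples. Its groups overlapped and it did not pass (0.12 ± 0.10, limma adjusted p = 0.593). The remaining 3 lay between 2.87 and 3.83 with overlapping groups, and none passed (differences 0.08, 0.08 and 0.12). All 5 probe sets share 1 gene, so they are not independent measurements of it.

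Of the transcription factors that fix the T cell fate, GATA3 and BCL11B were at background, and TCF7 was not measured. GATA3, a zinc finger factor of T cell specification, lay at 3.05, 3.19 and 3.18 in wild-type samples and at 3.51, 3.35 and 3.37 in Pax5-deficient samples, all at background. The groups did not overlap, but the difference of 0.27 ± 0.09 did not pass (limma adjusted p = 0.11), and with both groups at background it gives no fold. BCL11B, a zinc finger factor that locks in the T lineage, was at background on all 3 of its probe sets, between 3.01 and 3.70, with differences of 0.12, -0.08 and -0.04. With the 90% point as background, 1 of the 3 was above it in 2 Pax5-deficient samples. None of the 3 passed (limma adjusted p = 0.481 to 0.831).

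**Figure D2:**
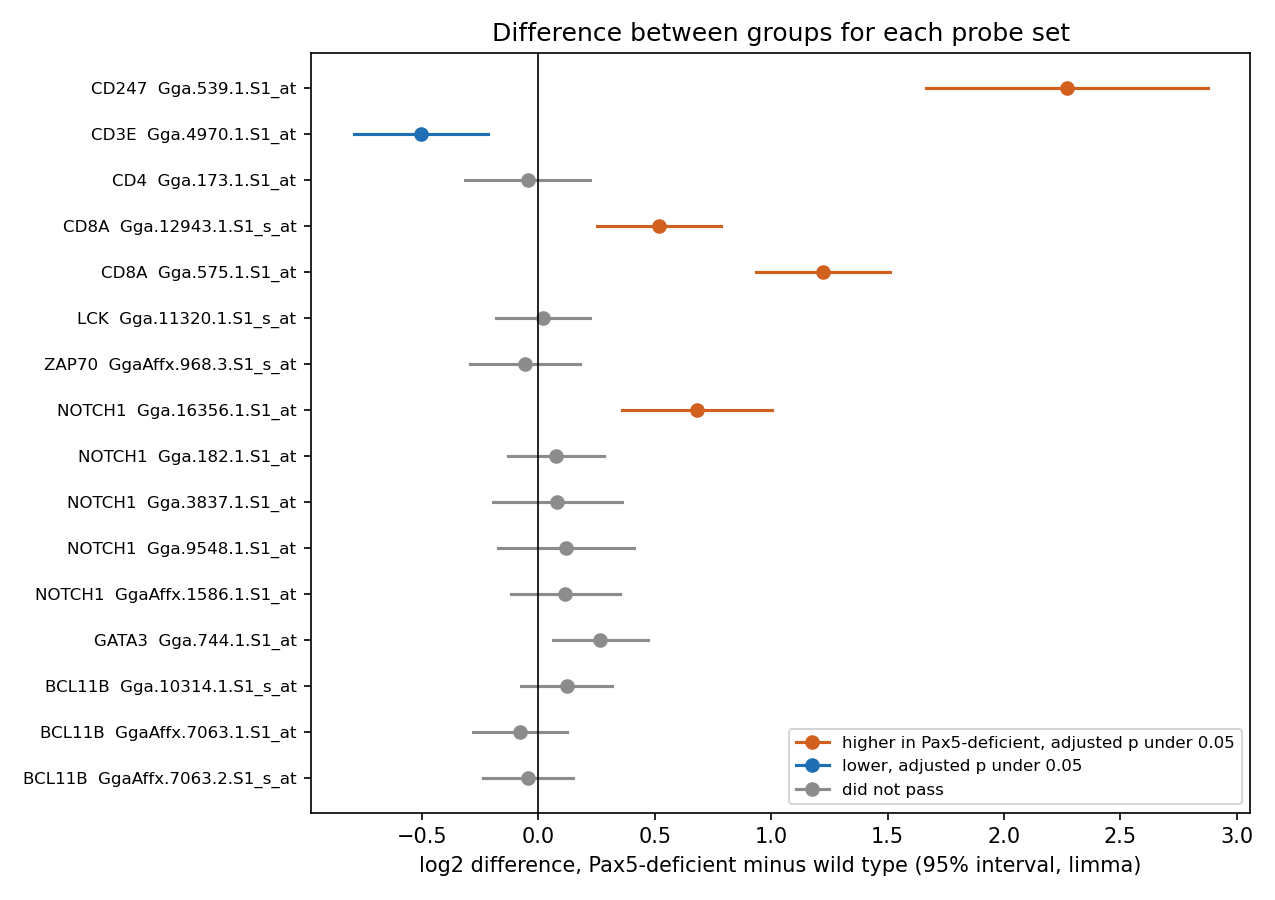
Log2 difference between Pax5-deficient and wild-type samples for each of the 16 probe sets, with its 95% interval from limma (orange, higher; blue, lower; grey, did not pass; n = 3 per group). CD247 stands at 2.27, the probe sets of CD8A at 0.52 and 1.22, and CD3E at -0.51.

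Genes beside the changed members on their chromosomes were set against them, in the order of the RefSeq table of assembly GRCg7b. The measured neighbours of CD247 fell or did not pass. CREG1, a secreted glycoprotein gene, fell by 0.80 ± 0.10, POU2F1, which encodes the octamer-binding factor OCT-1, by 0.61 ± 0.11, and RCSD1 by 0.52 ± 0.11 (limma adjusted p = 0.00126, 0.00662 and 0.017). DUSP27, on the far side of POU2F1, was at background in both groups. The call of RCSD1 was lost without wild-type replicate 1, 2 or 3 (adjusted p = 0.0523, 0.0639 and 0.0685).

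The measured neighbours before CD8A fell too. RMND5A fell by 0.64 ± 0.08 and RNF103, a ubiquitin ligase gene, by 0.76 ± 0.11 (limma adjusted p = 0.00134 and 0.00228). On its other side LOC771798 was at background in both groups. CD8BP, listed with the synonym CD8B in the RefSeq table, lay at 3.98, 4.02 and 3.77 in wild-type samples and at 3.77, 3.70 and 3.77 in Pax5-deficient samples. It did not pass (-0.18 ± 0.09, limma adjusted p = 0.33). Its Pax5-deficient values were all at background, in samples where both probe sets of CD8A were above it.

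CD3D, which encodes another CD3 chain, is the next measured gene after CD3E. It was far above background in this B cell line, at 11.49, 11.56 and 11.38 in wild-type samples and at 11.24, 11.11 and 11.22 in Pax5-deficient samples. These levels rest on its only probe set, and what that probe set bound here was not tested. The groups did not overlap, and the difference of -0.29 ± 0.09 did not pass (limma adjusted p = 0.0811). MPZL2 and MPZL3 on the other side had differences of 0.06 ± 0.09 and -0.10 ± 0.08, and ZW10, beyond CD3D, had -0.12 ± 0.15. None of these passed. Beside NOTCH1, none of AGPAT2, EGFL7, SEC16A and INPP5E passed, with differences from -0.50 to 0.17.

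**Figure D3:**
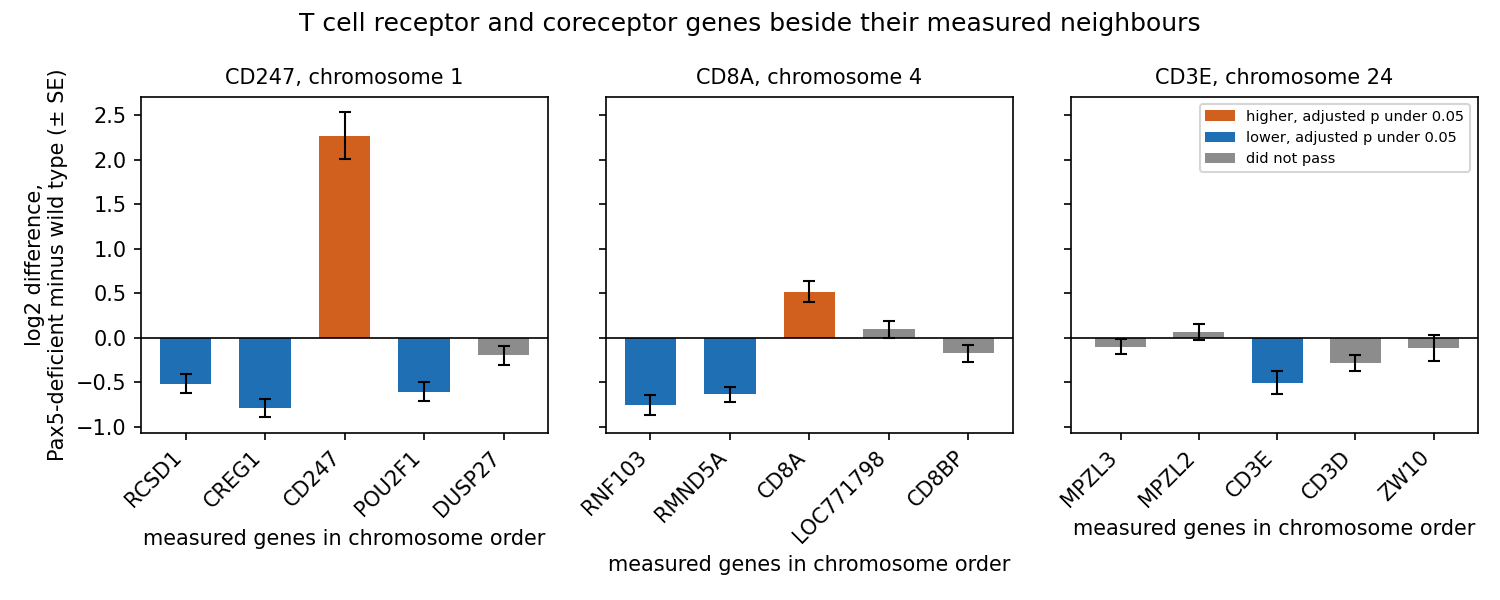
Log2 difference, Pax5-deficient minus wild type (bars, with ± SE; n = 3 per group), of CD247, CD8A and CD3E and of the 2 nearest measured genes on each side, each on its brightest probe set (orange, higher; blue, lower; grey, did not pass). CD247 stands at 2.27 between CREG1 at -0.80 and POU2F1 at -0.61.

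Family relatives of these genes include those that B cells use in their place. Of 22 symbols 18 were measured, of which none rose, 3 fell and 15 did not pass. The share that passed, 16.7%, was near the 15.8% of all genes, with 4 higher and 4 lower at an unadjusted p under 0.05. LYN, the Src family kinase of the B cell receptor, fell from 10.80, 10.87 and 10.80 to 9.12, 9.32 and 8.94, by 1.70 ± 0.11 (limma adjusted p = 2.92e-05), where LCK did not pass. Another probe set of LYN fell to background, at least 2.21-fold, and the last was at background in both groups. FYN, the other Src family kinase of T cells, lay at 3.64, 3.92 and 3.42 in wild-type samples and at 4.61, 4.09 and 4.05 in Pax5-deficient samples. The groups did not overlap, but the difference of 0.59 ± 0.17 did not pass (limma adjusted p = 0.0669), nor did its other probe set (0.48 ± 0.13, adjusted p = 0.0539). Above background were 1 wild-type and 3 Pax5-deficient samples on the first probe set of FYN. On the other, no wild-type and 2 Pax5-deficient samples were.

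SYK, the relative of ZAP70 that acts at the B cell receptor, was well above background, at 8.23, 8.54 and 8.33 and at 8.55, 8.63 and 8.81. It did not pass (0.29 ± 0.11, limma adjusted p = 0.154), nor on its other probe set (0.37 ± 0.16). BCL11A, the relative of BCL11B that B cell development needs, fell from 10.43, 10.63 and 10.39 to 8.89, 8.06 and 8.74. That fall of 1.92 ± 0.19 (limma adjusted p = 0.000365) was joined by the other 3 probe sets of BCL11A, which fell by 1.61 to 2.15. BCL11B at background thus stood beside a lower level of BCL11A.

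NOTCH2, the Notch receptor of mature B cells, lay at 9.26, 9.31 and 9.44 in wild-type samples and at 9.07, 8.81 and 8.84 in Pax5-deficient samples. It fell by 0.43 ± 0.10 (limma adjusted p = 0.0279), but the call held only without Pax5-deficient replicate 1. It was lost without Pax5-deficient replicate 2 or 3 (adjusted p = 0.0693 and 0.0948) or wild-type replicate 1, 2 or 3 (0.0549, 0.0854 and 0.11), and none of its other 5 probe sets passed. FCER1G, an adaptor related to CD247, did not pass (-0.04 ± 0.14), and lay between 4.54 and 5.02 in the 6 samples. GATA2, the relative of GATA3, was at background in both groups. LEF1, the relative of TCF7, was above background on 1 of its 3 probe sets, between 4.56 and 4.93, and did not pass (0.18 ± 0.10, limma adjusted p = 0.36).

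**Figure D4:**
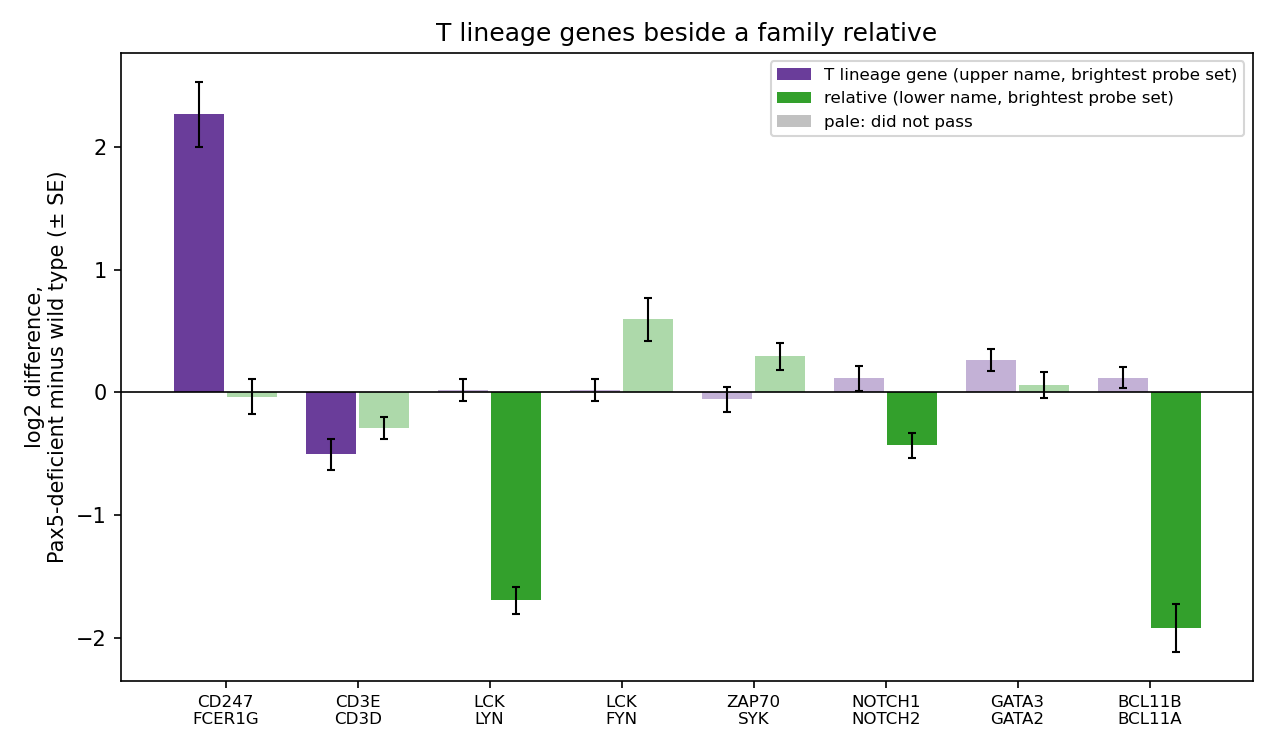
Log2 difference, Pax5-deficient minus wild type (bars, with ± SE; n = 3 per group), of a T lineage gene (purple, upper name) and of a relative (green, lower name), each on its brightest probe set, with pale bars where the adjusted p did not pass. LYN and BCL11A stand at -1.70 and -1.92 beside 0.02 for LCK and 0.12 for BCL11B.

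Other genes of the T cell surface did not pass the test. Of 17 other surface molecules of T cells 11 were measured, each on its brightest probe set, and none passed in limma. Of all 13009 genes 15.8% did, 6.01% higher and 9.74% lower, or 782 and 1267 genes (1059 and 1138 after quantile normalization). Of the 11 surface genes, 7 were at background in both groups: CD2, CD7, CD28, CTLA4, ICOS, TRAT1 and CD40LG. The smallest limma adjusted p among the 11, 0.0811, was that of CD3D, which was far above background. CD5, a scavenger receptor of T cells, and SLAMF1 had differences of -0.33 ± 0.12 and -0.70 ± 0.22 (limma adjusted p = 0.152 and 0.0874). At an unadjusted p under 0.05 there were 3 genes, all lower. The list's median difference was -0.04, beside 0.03 over all genes. Lists were matched by symbol only, so CD8B counts as not measured here and among the relatives. CD8BP, given above with CD8B as its synonym, did not pass.

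Receptor chain genes were looked at after their values were seen. TARP, which the RefSeq table lists with T cell receptor gamma joining segments as synonyms, has 19 probe sets, of which 15 were at background in both groups and 1 passed. That 1 lay at 3.57, 3.57 and 3.54 in wild-type samples, at background, and at 3.86, 3.81 and 4.04 in Pax5-deficient samples, close to it (limma adjusted p = 0.049). It passed only without Pax5-deficient replicate 2 among the 6 fits that left out a sample (otherwise 0.0736 to 0.146). The brightest TARP probe set was above background in all 6 samples, between 5.32 and 5.68, and did not pass (0.09 ± 0.11, limma adjusted p = 0.701). So was the next brightest, between 4.87 and 5.17. Its groups did not overlap, but it did not pass (0.20 ± 0.08, limma adjusted p = 0.195). The identifiers of the brightest and the next brightest end in _x_at, which in Affymetrix names marks probes that can bind other sequences. What these probes bound here was not tested. TRBV6-5, a T cell receptor beta variable gene, was above background in all 6 samples, between 6.37 and 7.76, with overlapping groups, and did not pass (0.35 ± 0.36). The identifier of this TRBV6-5 probe set ends in _s_at, so its probes can bind more than 1 transcript.

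Genes of proximal T cell receptor signalling went both ways. Of 26 symbols 19 were measured, of which 2 rose, 4 fell and 13 did not pass, with a median difference of 0.05. The share that passed was 31.6%, above the 15.8% of all genes. PRKCQ, the protein kinase C theta of T cells, rose by 1.15 ± 0.20 from 4.42, 4.29 and 3.98 to 5.27, 5.02 and 5.84 (limma adjusted p = 0.00686). The other probe set of PRKCQ was at background in both groups, so it gives no fold. Its difference of 0.38 ± 0.09 passed (limma adjusted p = 0.0226), but of the fits that left out 1 sample only that without Pax5-deficient replicate 2 kept the call. PLCG1, the phospholipase C of T cell receptor signalling, rose by 0.35 ± 0.08, which passed in none of the fits that left out 1 sample (adjusted p = 0.0511 to 0.0866). The identifier of this PLCG1 probe set ends in _x_at, so its probes can bind other sequences. The kinase CSK, which restrains Src family kinases, fell by 1.21 ± 0.20 (limma adjusted p = 0.00465). PTPRC, the phosphatase CD45, fell by 0.65 ± 0.09, and by 0.52 ± 0.09 on another probe set. CBLB, a ubiquitin ligase that limits receptor signalling, fell by 0.93 ± 0.12 on its brightest probe set, while its other 2 did not pass. RASGRP1, an activator of Ras, fell by 0.56 ± 0.14, and did not pass without Pax5-deficient replicate 2 or 3 (limma adjusted p = 0.0936 and 0.123) or wild-type replicate 1 or 2 (0.0938 and 0.13).

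Of 38 symbols of other Notch pathway genes 31 were measured, of which 1 rose, 2 fell and 28 did not pass. The share that passed was 9.68%, beside 15.8% of all genes, with a median difference of 0.02. LFNG, a glycosyltransferase that modifies Notch receptors, rose from 8.82, 8.54 and 8.30 to 9.44, 9.24 and 9.43, by 0.81 ± 0.14 (limma adjusted p = 0.00524), and its other probe set did not pass (0.50 ± 0.16). HEY1, a repressor that Notch signals induce, fell from 5.70, 6.04 and 5.86 to 4.91, 4.64 and 4.54, by 1.17 ± 0.13 (limma adjusted p = 0.000523). NOTCH2 was the other gene that fell. NCSTN, the nicastrin subunit of the gamma-secretase that cleaves Notch receptors, had a difference of -0.28 ± 0.10 and did not pass (limma adjusted p = 0.109). NRARP and DTX4 were at background in both groups, as was the ligand gene JAG1.

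Of 32 symbols of other T lineage transcription regulators 22 were measured, of which 4 rose, 1 fell and 17 did not pass, with a median difference of 0.12. In this list 22.7% passed, beside 15.8% of all genes. ID2, an inhibitor of E proteins that favours innate lymphoid and natural killer cells, rose from a mean of 5.77 ± 0.24 (SD) to 7.66 ± 0.38, by 1.89 ± 0.19 (limma adjusted p = 0.000366). Another probe set of ID2 rose by 0.74 ± 0.09, and its other 2 did not pass. ID3, a related inhibitor, rose by 1.10 ± 0.11, and MYB, a factor of lymphoid progenitors, by 0.70 ± 0.15. MYB no longer passed without wild-type replicate 1 or 3 (limma adjusted p = 0.0642 and 0.0517). CBFB, the partner of RUNX factors, rose by 0.38 ± 0.10, a call that held only without wild-type replicate 2 (adjusted p from 0.0527 to 0.131 without each of the others). RUNX1 fell from 6.18, 6.01 and 5.91 to 4.60, 4.11 and 4.22, by 1.73 ± 0.14 (limma adjusted p = 9.89e-05), and by 0.67 ± 0.12 on another probe set.

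**Figure D5:**
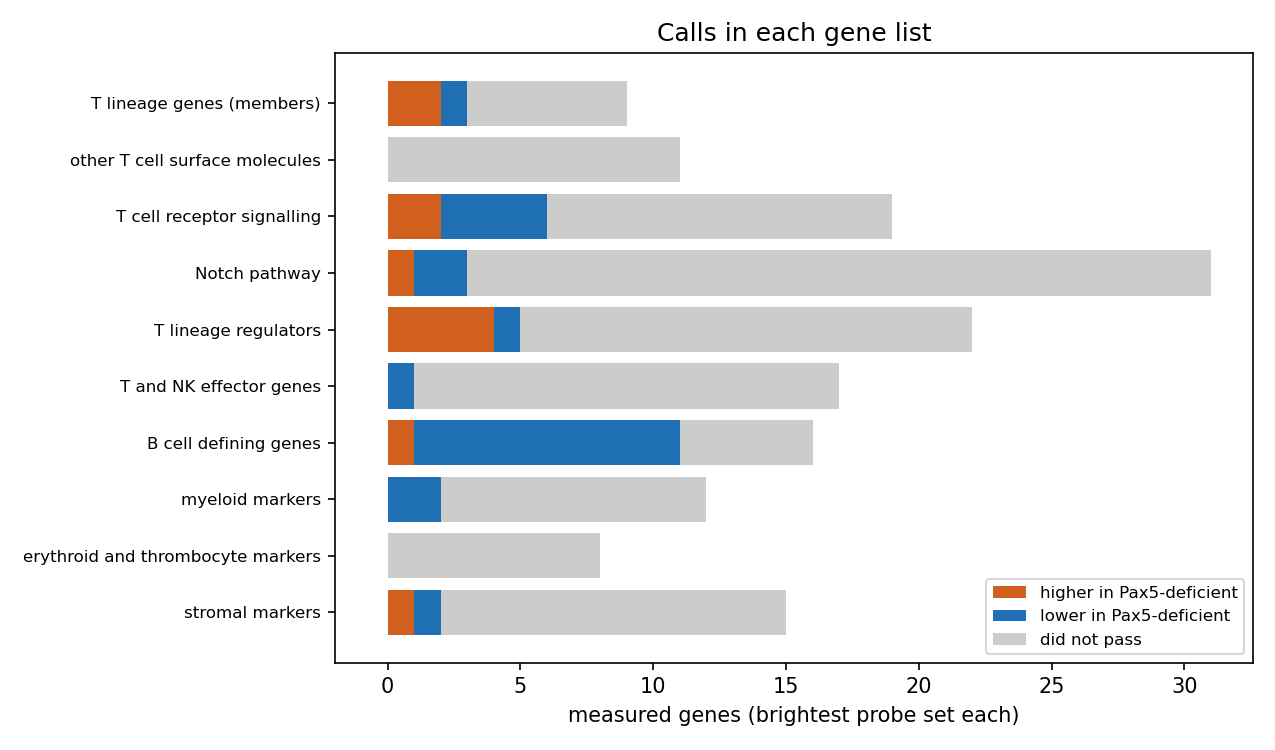
Number of measured genes in each gene list that were higher (orange), lower (blue) or did not pass (grey) in Pax5-deficient cells, each gene on its brightest probe set. Of 11 other T cell surface molecules none passed, and of 16 B cell genes 10 were lower.

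Markers of other cells were compared beside these results. Of 27 effector genes of T and natural killer cells 17 were measured, of which none rose and 1, HAVCR1, fell (by 1.15 ± 0.19, and by 2.07 ± 0.26 on another probe set). The share that passed was 5.88%, beside 15.8% of all genes. The last probe set of HAVCR1 did not pass (0.04 ± 0.12, limma adjusted p = 0.886). Effector genes at background in both groups included GZMA, IFNG, IL2, IL17A, IL21, CCR7, XCL1 and LAG3. The mean level of the 17 was 3.97 to 4.05 in wild-type samples and 3.95 to 4.07 in Pax5-deficient samples. CCL4 and PDCD1 had differences of 0.18 ± 0.10 and 0.27 ± 0.15. An array of a cell culture cannot tell a few cells with much of a transcript from many cells with little of it.

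The 16 measured B cell genes had 10 lower, 1 higher and 5 that did not pass, with a median difference of -0.80. PAX5, on its brightest probe set, is counted among the 5. The share that passed was 68.8%, beside 15.8% of all genes. VPREB3 fell by 6.60 ± 0.20, EBF1 from 8.62, 8.70 and 8.69 to background, CD72 by 4.02 ± 0.12 and CD79B by 2.29 ± 0.11. The other probe set of CD72 fell by 1.98 ± 0.22, and that of EBF1 also fell to background. The mean level of the 16 B cell genes was 8.82 to 8.87 in wild-type samples and 7.29 to 7.38 in Pax5-deficient samples. TNFRSF13B was the gene that rose. The lower call of IRF8 held only without Pax5-deficient replicate 2 (limma adjusted p from 0.0771 to 0.164 without each of the others). That of IKZF3 was lost without Pax5-deficient replicate 2 or 3 (0.0599 and 0.0748) or wild-type replicate 1 or 2 (0.0944 and 0.11). Of 12 measured myeloid markers none rose and 2 fell, CEBPB by 1.75 ± 0.19 and SPI1 by 1.04 ± 0.12, while LYZ and MARCO were at background in both groups. Among the myeloid markers 16.7% passed, near the 15.8% of all genes. The mean level of the myeloid markers was 4.85 to 4.98 in wild-type and 4.68 to 4.83 in Pax5-deficient samples.

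None of 8 measured erythroid and thrombocyte markers passed in limma (3 higher and none lower at an unadjusted p under 0.05), with mean levels of 4.40 to 4.54 and 4.55 to 4.69. HBA1 and F13A1 had differences of 0.46 ± 0.14 and 0.35 ± 0.11 (limma adjusted p = 0.07 and 0.0916), and HBAD and HBZ had 0.14 ± 0.10 and 0.19 ± 0.08. F13A1 was at background in the wild-type samples and above it in 1 Pax5-deficient sample. The other probe sets of HBA1 had differences of 0.01 ± 0.08 and -0.16 ± 0.12, and those of F13A1 were at background in both groups. Of 15 fibroblast and stromal markers COL1A2 rose and VIM fell (by 0.88 ± 0.11), and 13 did not pass, among them COL3A1 (0.27 ± 0.11) and FN1 (0.33 ± 0.15). The share of stromal markers that passed was 13.3%, near the 15.8% of all genes. The mean level of the stromal markers was 4.34 to 4.49 and 4.41 to 4.50. The probe sets of COL1A2 differed widely: the brightest rose by 0.50 ± 0.10 (lost without wild-type replicate 2, limma adjusted p = 0.0511), another by 4.46 ± 0.19. The identifier of the brightest ends in _x_at and that of the other in _s_at. A probe set with neither ending rose from background by 3.68 ± 0.15, at least 11.2-fold (limma adjusted p = 2.09e-06). Rises of 0.96 ± 0.13 and 0.81 ± 0.12 on further probe sets passed too, and the rest were at background in both groups. The part of any of these cell types in the rise of CD247 or CD8A was not tested.

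The genes whose levels ran most closely with a changed member were found by Pearson's r over the 6 samples, among 9223 genes above background in all samples of at least 1 group. For CD247 they were CASC4, ODC and N4BP2L1 (r = 0.999, 0.997 and 0.997), which rose by 0.56 ± 0.10, 0.71 ± 0.10 and 0.58 ± 0.10. For the probe set of CD8A with the larger rise they were CAV2, C7orf73 and TXN (r = 0.997 each), and for the other they were ISOC1, DTYMK and SRM (r = 0.993, 0.993 and 0.988). For CD3E they were PHACTR4, SEPTIN7 and MATR3 (r = 0.999, 0.996 and 0.994), with differences of -0.34, -0.21 and -0.21, none of which passed. For the probe set of NOTCH1 that rose they were COA5, FSD1L and FUT7 (r = 0.993, 0.992 and 0.991). These points fall into the same groups of 3 and 3 for every gene, so r is a description of likeness over 6 arrays.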

How the data were processed

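Total RNA of 6 DT40 samples was biotin-labelled for Affymetrix chicken arrays, per the labels. The authors deposited a table of log2 values with 1 column per sample; the submitters' processing notes name RMA. As generally defined, RMA corrects background, normalizes quantiles across arrays and summarises probes, and it understates differences of dim probe sets. The sources used here give no version, software or probe set definition. Of 38535 rows, 96 AFFX controls were dropped, and 0 values were missing. Platform annotation named the genes: 1 symbol for 27168 probe sets, several for 177 and none here for 11094. A check by Entrez ID against RefSeq (GRCg7b) changed 0 symbols. Gene lists were matched by symbol only.

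The main test was limma 3.58.1 in R 4.3.3, a linear model per probe set on genotype alone with moderated two-sided tests, Benjamini-Hochberg adjusted over 38439 probe sets at a threshold of 0.05. Errors are limma's moderated standard errors. Genes other than the members are given on their brightest probe set by mean over all samples unless stated. A group is at background where all 3 samples are at or under the level that 95% of 687 virus probe sets on the same array did not exceed. In that case only a lower bound of the fold is given, for which each dim value is raised to its array's background level where it is under it. With 6 arrays, their number limits the precision. The fit was tested on simulated data.

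All members, the genes with the 4 smallest adjusted p of each of 10 other lists and a fixed relative of each member are named, with the 3 genes most like each changed probe set. Genes outside this rule were named after their values were seen: PLCG1, RASGRP1, CBFB, TNFRSF13B, IRF8, IKZF3, TARP, TRBV6-5, SRC, genes listed as at background and the neighbours of members. The members and lists were chosen with earlier results of these data known. The replicate numbers of the titles were not used as pairs in the main test. Deviations from the group means correlated at 0.115, 0.0724 and -0.00729 between same-numbered samples and at -0.117 to 0.0576 between the others. With 3 samples per group these values depend on each other and cannot decide whether the samples were paired. Alternatives were quantile normalization, centring, filters, variance models, a minimum change, a replicate block, leaving out each sample, the mean of probe sets and other background levels.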

Additional observations from a re-analysis of the deposited data

How the results depend on the processing

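Of 16 probe sets, 5 passed also after quantile normalization, array median centring, with a variance trend, with robust eBayes and with the replicate block. With the block, 4116 probe sets and 13 of the 83 genes on the T cell surface, signalling, Notch and regulator lists passed, against 4085 and 14 without it, and the block changed no call of the 16. Tested against a change of 0.5, 2 of the 16 passed (CD247 and 1 probe set of CD8A), with 780 of all probe sets and 4 list genes. CD3E (-0.51), the other probe set of CD8A (0.52) and NOTCH1 (0.68) then did not pass. Leaving out 1 sample gave 2 to 5 of the 16, 2490 to 4172 of all probe sets and 9 to 13 list genes. The lowest were 2 without Pax5-deficient replicate 3, 2490 without wild-type replicate 2 and 9 without wild-type replicate 1. Without a wild-type sample 3 of the 16 passed. Over these fits the differences ranged from -0.62 to -0.41 for CD3E, from 0.40 to 0.61 for the weaker CD8A probe set and from 0.55 to 0.78 for NOTCH1. Filters on dim probe sets removed the NOTCH1 probe set that rose and kept the other 4 calls. Signs turned only where nothing passed: LCK was -0.0092 after centring and -0.0146 after quantile normalization, and leaving out 1 sample gave -0.0131 to 0.0733 for LCK, -0.1253 to 0.0553 for CD4, -0.1119 to 0.0327 for ZAP70, -0.0503 to 0.1815 for the dimmest probe set of NOTCH1 and -0.0697 to 0.0061 for the dimmest of BCL11B. At background in every sample were 7 probe sets, 5 with the 90% point as background and 12 with the 99% point. With the 99% point all probe sets of NOTCH1, LCK and ZAP70 joined them, and the wild-type samples of CD247 and CD8A were at background. At that point 1 Pax5-deficient sample was above background for CD3E and 1 for the dimmer CD8A probe set. All 3 Pax5-deficient samples were above it for CD247 and the brighter CD8A probe set. With the 90% point, 1 probe set each of NOTCH1 and BCL11B left those at background in every sample. Over all genes, 782 rose and 1267 fell, and 1059 and 1138 after quantile normalization. Dim signal limits what can be said of LCK, ZAP70, CD4, GATA3 and BCL11B.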

Other observations

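On 1 of the 7 probe sets of SRC, a kinase of the same family as LCK, 1 sample stood apart. This probe set, the brightest, lay at 7.52, 7.13 and 7.80 in wild-type samples, at 7.63 and 7.13 in Pax5-deficient replicates 1 and 2 and at 10.07 in replicate 3. The groups overlapped and the difference of 0.79 ± 0.63 (SE, n = 3 per group) did not pass (limma adjusted p = 0.543). The identifier of this probe set ends in _s_at. The next brightest probe set of SRC did not show it, at 6.61, 6.34 and 6.52 in the Pax5-deficient samples. A dimmer probe set, also with the ending _s_at, lay at 4.19, 4.22 and 4.68 there, with replicate 3 the highest. On the rest replicate 3 was not the highest Pax5-deficient sample. Among the Pax5-deficient samples CD247 was highest in replicate 2.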
